A study of Mus musculus with 9 samples.

Results

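The T cell receptor complex was followed through its CD3 chain genes Cd3d, Cd3e, Cd3g and Cd247 and its constant region genes Trac, Trbc1, Trbc2, Trdc, Tcrg-C1 and Tcrg-C2. These 10 genes were taken by name from the 50508 gene rows of the count table. All 10 were among the 14708 genes that passed the filter on low counts, and the conventional T cell libraries were enough for each of them to pass, so passing says nothing about the other cells. The study sorted 3 populations from mouse spleen: cells named TDC, conventional dendritic cells (DC) and conventional T cells (T). All 3 came from untreated, naive mice, 8 weeks old and homozygous for Zbtb46-GFP, a reporter that marks cells using the Zbtb46 locus, which is active in conventional DC. Every group therefore carried the reporter on both copies of that locus, and no group from unmodified mice was analysed here. Each population had 3 libraries, 1 from a pool of 5 mice and 2 from pools of 6 mice. The labels do not state the sorting gates. The labels list RPMI medium with serum for the cells.

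The T cell receptor of most T cells is an α chain paired with a β chain, and a smaller lineage pairs a γ chain with a δ chain. These chains recognise antigen but have almost no cytoplasmic tail, so they reach the surface and signal only together with the CD3 γ, δ, ε and ζ chains. The CD3 chains carry tyrosine motifs (ITAMs) that Lck phosphorylates and that then bind the kinase ZAP-70. The complex is a hallmark of T cells, while the ζ chain, encoded by Cd247, also serves Fc and natural cytotoxicity receptors of NK cells.

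Libraries held 14594850 to 22677130 assigned reads in TDC, 14973484 to 25676640 in DC and 10986544 to 18071425 in T cells. Levels are given as CPM (counts scaled to a common library total) after TMM scaling, and fold changes are those of edgeR's quasi-likelihood fit, adjusted by Benjamini-Hochberg across the 14708 genes. A group without any read can still hide a level of up to 3 reads over its libraries, which is 0.0706 CPM in TDC, 0.0524 CPM in DC and 0.0557 CPM in the T cells, counting error only. The labels do not say which animals went into which pool, so a p-value reflects only how far these pooled libraries spread, which may be partly technical. Marker lists of other cells differed between the groups. The 8 macrophage markers summed to 37693 to 71009 CPM in TDC, 184 to 299.8 CPM in DC and 1.83 to 4.84 CPM in the T cells. The 7 conventional DC markers summed to 2042 to 4791 CPM in TDC, 19585 to 38506 CPM in DC and 5.63 to 10.2 CPM in the T cells. The 10 T cell markers other than the receptor genes summed to 197 to 512 CPM in TDC, 357 to 376 CPM in DC and 4282 to 5664 CPM in the T cells. Most of the DC sum was Cd8a, at a mean of 253 CPM, and Cd4, at 76.9 CPM, and Cd5 averaged 22.7 CPM there. In DC, Cd2 averaged 0.942 CPM, and Cd28, Thy1, Bcl11b and Lef1 averaged 0.0232 to 0.0765 CPM. In TDC, Cd4 averaged 170 CPM. Sums for the 5 erythroid markers found were 448 to 1521 CPM in TDC, 0.537 to 14.6 CPM in DC and 0.0988 to 1.18 CPM in the T cells, and for the 7 B cell markers 94.2 to 147 CPM in TDC, 286 to 380.1 CPM in DC and 14.9 to 34.9 CPM in the T cells. The part of these other cells in the receptor gene levels was not tested.

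TDC carried transcripts of all 4 CD3 chains and of the α and β constant genes, at 1.62% to 2.55% of the mean level in conventional T cells. Of these 7 genes, 6 were called higher in TDC than in DC (9.55% of all tested genes were), and Cd247 was not called. In DC, Cd3e and Cd3g had no read, and the others had reads in 1 or 2 libraries each. Transcripts of the γ and δ constant genes were at or near 0 reads in TDC. Together the 10 genes took 0.0123%, 0.00368% and 0.0156% of all reads in the 3 TDC libraries, 0.000257%, 0.000352% and 0.000381% in the DC libraries, and 0.749%, 0.935% and 0.733% in the T cell libraries. The 3 populations did not overlap in this share. Exact Clopper-Pearson 95% intervals, which cover counting error only, ran from 0.00344% to 0.00394% in the lowest TDC library and from 0.000288% to 0.000493% in the highest DC library. In bulk libraries, fewer cells of a type and less RNA per cell cannot be told apart, and this holds for every level below.

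**Figure D1:**
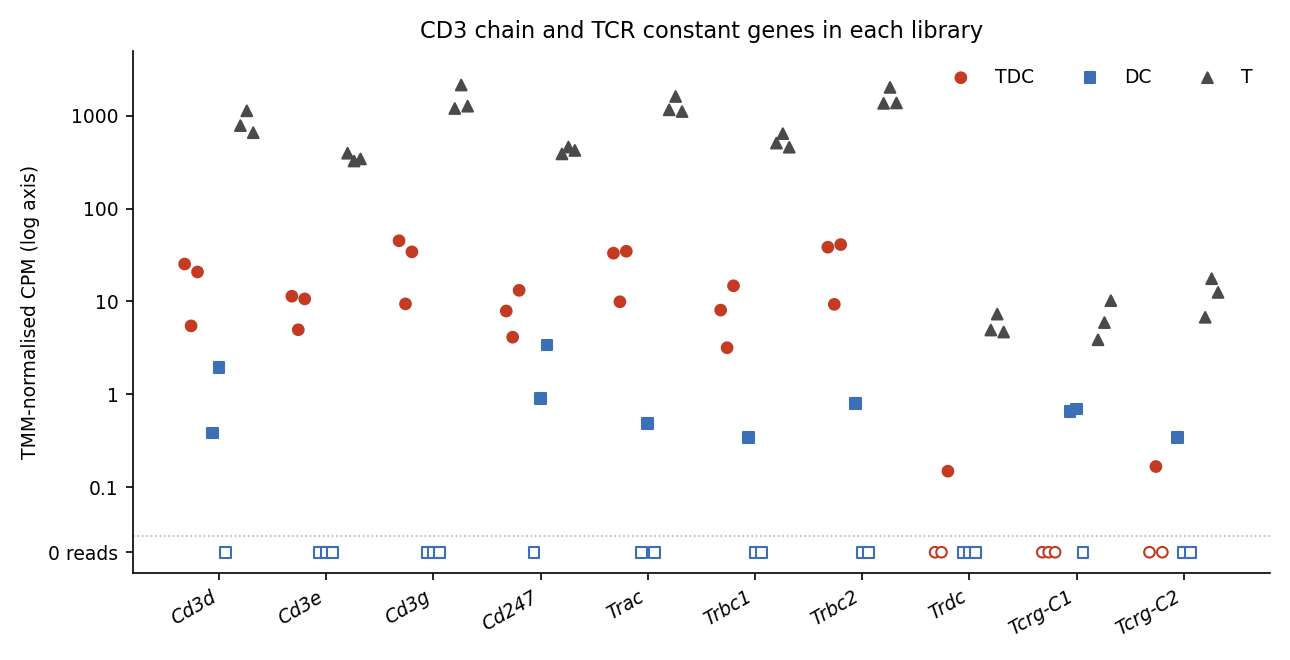
TMM-normalised CPM (log axis) of the 10 receptor genes, 1 symbol per library and 3 libraries per population, with open symbols on the bottom line for libraries without a read. For the CD3 chains and the α and β constant genes, TDC libraries lie between DC and T cell libraries, whereas Trdc, Tcrg-C1 and Tcrg-C2 have at most 3 reads in any TDC library.

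Against conventional T cells, all 10 genes were lower in TDC, where 11.2% of all tested genes were called lower and 21.8% higher. The median log2 fold change of the 10 genes was -5.72, and that of all tested genes was 0.14. Every TDC library was below every T cell library for all 10, which also held for 22.4% of all tested genes. Against DC, 6 of the 10 genes were higher in TDC (Cd3d, Cd3e, Cd3g, Trac, Trbc1 and Trbc2), where 9.55% of all tested genes were called higher. The median log2 fold change of the 10 against DC was 5.18, beside 0.01 for all tested genes. None of the 10 was called lower in TDC than in DC, where 4.6% of all tested genes were called lower: the count was 1 at an unadjusted p under 0.05, 1 with DESeq2 and 0 with limma-voom, and the gene was Tcrg-C1 both times. Against T cells, 9 of the 10 genes were lower in DC, where 8.41% of all tested genes were called lower, and Tcrg-C1 was the gene not called. Each of the 3 comparisons shares a group of libraries with each of the others. Because 3 libraries against 3 allow no exact permutation p below 0.1, calls rest on the model across all genes.

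The CD3 γ, δ and ε genes sit together on chromosome 9, and Cd247 lies on chromosome 1. Cd3g and Cd3d start 1355 bases apart on opposite strands, and Cd3e starts 27825 bases from Cd3d. Because all 4 genes were lower in TDC and in DC than in T cells, the 250 bases before each RefSeq start site are shown, read 5′ to 3′ on the gene's own strand of GRCm38.p6, with letter matches in capitals. The letters searched on both strands were GGAAGT for ETS factors, TGTGGT for RUNX factors, CAGGTG for E-proteins, CAAAG for TCF and LEF factors and AGATAA for GATA factors. The windows are chr9:44981536-44981785 (plus strand) for Cd3d, chr9:45009612-45009861 (minus strand) for Cd3e, chr9:44980432-44980681 (minus strand) for Cd3g and chr1:165788431-165788680 (plus strand) for Cd247.
Cd3d: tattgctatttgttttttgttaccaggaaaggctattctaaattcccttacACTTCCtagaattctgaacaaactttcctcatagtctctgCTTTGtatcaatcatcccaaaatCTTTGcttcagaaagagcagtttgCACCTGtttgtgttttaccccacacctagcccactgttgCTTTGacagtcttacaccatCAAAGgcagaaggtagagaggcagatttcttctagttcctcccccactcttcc
Cd3e: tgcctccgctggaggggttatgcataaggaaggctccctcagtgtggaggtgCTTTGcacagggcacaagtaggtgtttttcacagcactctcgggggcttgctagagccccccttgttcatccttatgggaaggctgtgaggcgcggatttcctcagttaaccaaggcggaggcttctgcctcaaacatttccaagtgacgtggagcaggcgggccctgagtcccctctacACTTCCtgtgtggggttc
Cd3g: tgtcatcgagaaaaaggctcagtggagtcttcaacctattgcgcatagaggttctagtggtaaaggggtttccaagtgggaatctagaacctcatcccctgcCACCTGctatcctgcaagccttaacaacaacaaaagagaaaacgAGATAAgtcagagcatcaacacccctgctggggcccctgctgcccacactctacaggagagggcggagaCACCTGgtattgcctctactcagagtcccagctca
Cd247: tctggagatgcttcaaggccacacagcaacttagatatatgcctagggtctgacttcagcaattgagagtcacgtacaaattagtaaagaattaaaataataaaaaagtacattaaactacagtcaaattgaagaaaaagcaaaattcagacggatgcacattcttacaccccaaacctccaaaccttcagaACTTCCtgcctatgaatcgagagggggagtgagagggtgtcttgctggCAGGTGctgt
The ETS letters occur once each before Cd3d, Cd3e and Cd247, and in 19.74% of 32851 RefSeq mouse promoter windows of the same length. The E-protein letters occur once before Cd3d and Cd247 and at 2 places before Cd3g, and in 17.22% of all windows. The TCF and LEF letters occur at 4 places before Cd3d and once before Cd3e, and in 48.58% of all windows. The GATA letters occur only before Cd3g among the 4, and in 9.99% of all windows. The RUNX letters, in 14.05% of all windows, are in none of the 4. No searched match overlaps another, and a match of letters is a description of the window, not of binding. Of the 10 genes 8 were found in the RefSeq gene table, and the 4 CD3 chain genes had a promoter entry.

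Cd3e encodes the CD3 ε chain, which pairs with both γ and δ and is needed for any receptor to assemble. It had 11.4, 4.96 and 10.7 CPM in TDC, no read in any DC library, and 394, 325 and 342 CPM in the T cells. Every TDC library was above every DC library and below every T cell library. Cd3e averaged 9.01 ± 3.52 CPM in TDC and 354 ± 36.0 CPM in the T cells (SD, n = 3 each). It fell by 5.30 on the log2 scale in TDC against T cells (SE 0.44, adjusted p = 5.96e-05 by edgeR's quasi-likelihood test). Against DC, its level in TDC was at least 172-fold higher (adjusted p = 0.000212), since DC had no read.

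Cd3g, which encodes the CD3 γ chain, had 45.1, 9.42 and 34.2 CPM in TDC. DC again had no read in any library, and T cells had 1193, 2137 and 1264 CPM. The order of the populations was the same as for Cd3e. Cd3g was lower in TDC than in T cells by a log2 fold change of -5.70 (SE 0.66, adjusted p = 0.000341) and at least 564-fold higher in TDC than in DC (adjusted p = 0.000491).

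Cd3d encodes the CD3 δ chain. Its level was 25.3, 5.46 and 20.8 CPM in TDC, 0.383, 1.95 and 0 CPM in DC, and 781, 1128 and 656 CPM in the T cells. No TDC library overlapped with DC or with T cells. The log2 fold change was -5.64 in TDC against T cells (SE 0.98, adjusted p = 0.00167) and 4.52 in TDC against DC (SE 0.99, adjusted p = 0.0125). The call against DC was not met without a filter on low counts (adjusted p = 0.0637), in a fit of these 2 groups alone (0.0649) or without DC replicate 1 (0.0559), and over all alternatives its adjusted p ran from 6.15e-06 to 0.0649. Without DC replicate 2, which held 28 of the 38 DC reads, the value against DC was 6.18.

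Cd247, the ζ chain gene, was the CD3 gene whose TDC and DC levels lay closest. It had 7.90, 4.13 and 13.2 CPM in TDC, 0, 0.906 and 3.40 CPM in DC, and 388, 459 and 423 CPM in the T cells. The lowest TDC library was just above the highest DC library. Cd247 fell by 5.66 on the log2 scale in TDC against T cells (SE 1.07, adjusted p = 0.00264). Against DC its log2 fold change of 2.58 (SE 0.98) did not pass the test (adjusted p = 0.112). DC replicate 3 held 57 of the 70 DC reads of Cd247. Without that library the fold change was 4.42 (adjusted p = 0.0202), and without DC replicate 1 it was 1.95 (adjusted p = 0.0888). DESeq2 (adjusted p = 0.0447) and limma-voom (0.0439) called it, within a range of 0.0202 to 0.308 over all alternatives. The NK and innate lymphoid markers, another setting in which Cd247 is used, summed to 89.1 to 109 CPM in TDC, 67.7 to 108 CPM in DC and 524 to 1375 CPM in the T cells. Of these 9 markers 7 had reads in TDC. Against T cells, 5 of the 7 tested were lower in TDC (11.2% of all tested genes were). Of the others, 1 was higher (21.8% of all were) and 1 was not called. Nkg7 carried most of the T cell sum, with 13.9 ± 9.26 CPM in TDC, 0.102 ± 0.177 CPM in DC and 736 ± 414 CPM in the T cells. Klrk1, which encodes the activating receptor NKG2D, carried most of the TDC sum, with 81.0 ± 8.35 CPM in TDC, 81.9 ± 17.2 CPM in DC and 31.0 ± 11.5 CPM in the T cells (SD, n = 3 each), a log2 fold change of 1.38 in TDC against T cells (adjusted p = 0.0109). Ncr1, the natural cytotoxicity receptor of NK cells, had 0 reads in TDC, 42 in DC and 8 in T cells, and Klra8 had 1 read in the whole table. Their part in the Cd247 levels was not tested.

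Trac encodes the constant region of the α chain, which every αβ receptor uses. It had 33.1, 9.93 and 34.7 CPM in TDC, 0, 0.488 and 0 CPM in DC, and 1156, 1608 and 1107 CPM in the T cells. The 3 populations did not overlap, and the DC value came from 7 reads in 1 library. Trac averaged 25.9 ± 13.9 CPM in TDC and 1290.4 ± 276 CPM in the T cells (SD, n = 3 each), a log2 fold change of -5.64 (SE 0.84, adjusted p = 0.000619). Its log2 fold change in TDC against DC was 7.52 (SE 1.02, adjusted p = 0.00127). That value was 6.76 without DC replicate 1 and 11.78 without DC replicate 2, when no DC read was left.

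The β chain has a choice of constant genes, Trbc1 and Trbc2, on chromosome 6. Their coding sequences of 518 bases in GENCODE M21 are 95.56% identical, with 1 difference in the 375 bases of the first coding exon, 3 in the 18 bases of the second and 15 in the 107 bases of the third. The third exon, which holds most of the 23 differences, is shown from the plus strand of GRCm38 at chr6:41539229-41539335 for Trbc1 and chr6:41547772-41547878 for Trbc2, with the differing bases in capitals.
Trbc1: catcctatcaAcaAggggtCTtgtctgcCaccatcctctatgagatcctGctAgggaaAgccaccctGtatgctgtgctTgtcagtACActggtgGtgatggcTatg
Trbc2: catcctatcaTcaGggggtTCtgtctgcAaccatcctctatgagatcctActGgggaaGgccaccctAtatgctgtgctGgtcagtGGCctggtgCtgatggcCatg
The library kit reads the 3′ ends of transcripts, and the last 150 bases of the annotated models share 48.8% of their bases with no common run longer than 7. The labels do not say how reads matching both copies were counted, so the copies are also given as a sum. Summed, they had 46.5, 12.5 and 55.7 CPM in TDC, 1.15, 0 and 0 CPM in DC, and 1863, 2655 and 1828 CPM in the T cells. The populations did not overlap. The log2 fold change of the sum was -5.79 in TDC against T cells (SE 1.03, adjusted p = 0.00192) and 6.41 in TDC against DC (SE 1.11, adjusted p = 0.00414). All 30 DC reads of the pair came from DC replicate 1, and without it the fitted value against DC was 12.26 with no DC read left.

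Counted singly, Trbc2 had 38.4, 9.31 and 41.0 CPM in TDC and 1356, 2014 and 1370.1 CPM in the T cells. Trbc1 had 8.08, 3.18 and 14.8 CPM in TDC and 507, 641 and 457 CPM in the T cells. Both were lower in every TDC library than in any T cell library. In TDC against T cells the log2 fold change was -5.74 for Trbc2 (SE 0.96, adjusted p = 0.00128) and -5.95 for Trbc1 (SE 0.79, adjusted p = 0.000310). Without TDC replicate 3 the Trbc1 value was -6.62. In TDC against DC it was 6.51 for Trbc2 (SE 1.05, adjusted p = 0.00280) and 5.84 for Trbc1 (SE 0.90, adjusted p = 0.00231). Without DC replicate 1, which held all DC reads of both, these fitted values were 11.88 and 10.11, and without TDC replicate 3 the Trbc1 value was 5.14. The reads of Trbc2 divided by those of Trbc1 were 4.76, 2.93 and 2.78 in TDC and 2.68, 3.14 and 3.00 in T cells, so the use of the copies overlapped between the populations.

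The TDC libraries differed among themselves in the level of the 7 CD3 and αβ genes. As a percentage of the T cell mean, the median over these 7 genes was 2.57% in TDC replicate 1, 0.639% in TDC replicate 2 and 2.69% in TDC replicate 3. TDC replicate 2 was the lowest for every one of the 7. The mean over the libraries lay between 1.62% for Trbc1 and 2.55% for Cd3e. Leaving out TDC replicate 2 moved none of the 7 fold changes against T cells by more than 1.5 times.

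**Figure D2:**
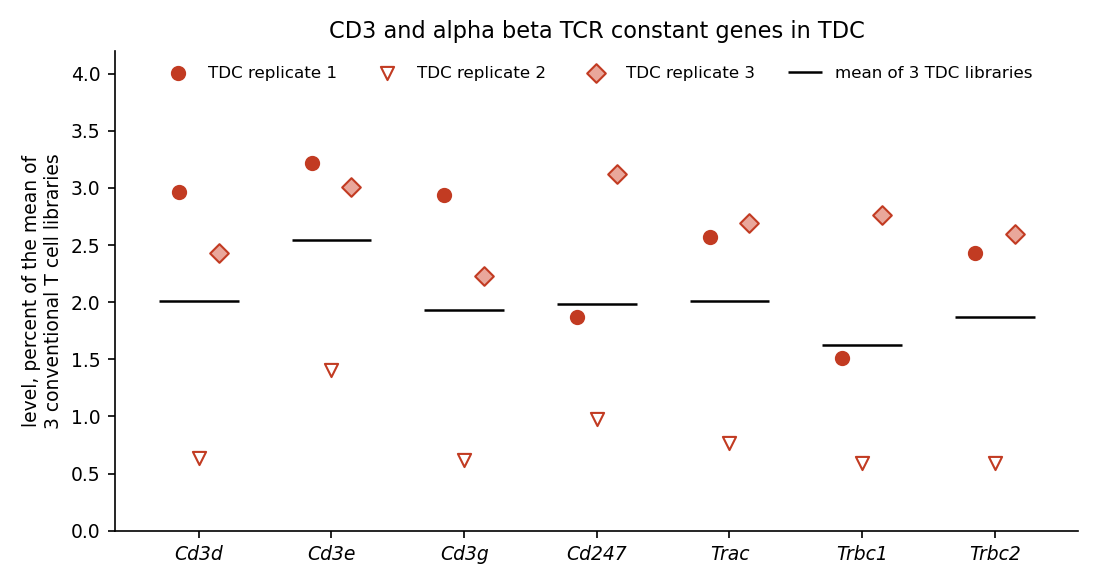
Level of the 7 CD3 and αβ constant genes in each TDC library as a percentage of the mean of the 3 T cell libraries (linear axis), with a line at the mean of the TDC libraries. TDC replicate 2 lies lowest for all 7 genes, and the means lie between 1.62% and 2.55%.

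T cell markers outside the receptor were compared on the same scale. Over the 10 markers fixed for T cells beyond the receptor, the median was 2.76%, 2.05% and 6.22% of the T cell mean in TDC replicates 1, 2 and 3. Cd2, an adhesion receptor, had 2.69%, 1.09% and 3.01%, close to the receptor genes. Cd8a, a coreceptor chain that splenic DC of the CD8 lineage also express, had 6.16%, 2.73% and 13.7%. Cd4, the coreceptor of helper T cells, had 26.6%, 96.7% and 112%. DC held Cd4 transcripts too, at 76.9 ± 41.9 CPM beside 170 ± 98.9 CPM in TDC (SD, n = 3 each). Cd4 was not called in TDC against DC (log2 fold change 1.14, adjusted p = 0.240 by edgeR's quasi-likelihood test). Of the 10 markers 9 were lower in TDC than in T cells, beside 11.2% of all tested genes. Against DC, 5 of the 10 were higher in TDC (9.55% of all tested genes were) and 4 were not called. The 1 that was lower (4.6% of all were) was Cd8a, with a log2 fold change of -2.69 (adjusted p = 0.00688 by edgeR's quasi-likelihood test). Cd4 was not called against T cells (log2 fold change -0.35, adjusted p = 0.694, and 0.089 without TDC replicate 1). Without TDC replicate 3 the log2 fold change of Cd8a in TDC against T cells, -3.73, was -4.54. Whether Cd4 differs from the receptor genes in its fold change was not tested.

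Within libraries, none of the ratios among CD3 and αβ genes separated TDC from T cells. The ratio of reads was taken on the log2 scale with 0.5 read added, so it needs no scaling between libraries. Relative to Trac, Cd3d was at -0.66 ± 0.24 in TDC and -0.61 ± 0.13 in T cells, and Cd3g at 0.12 ± 0.29 in TDC and 0.22 ± 0.18 in T cells (SD, n = 3 each). Cd247 was at -1.57 ± 0.43 in TDC and -1.59 ± 0.21 in T cells. Trbc2 was at 0.12 ± 0.18 in TDC and 0.29 ± 0.05 in T cells, and Trbc1 at -1.63 ± 0.40 in TDC and -1.26 ± 0.07 in T cells. The groups overlapped in all 11 ratios among CD3 and αβ genes, taken to Trac and to Cd3e. The widest difference among them was 0.81 log2 units, for Trbc1 to Cd3e, at -0.22 ± 0.60 in TDC and 0.59 ± 0.34 in T cells. Every CD3 and αβ ratio to Cd3e had the lower mean in TDC. Without replicate 2 of both populations, TDC minus T was 0.092 for Cd3d, 0.087 for Cd3g, -0.0050 for Trac and -0.048 for Trbc2. Their values with all libraries were -0.49, -0.54, -0.44 and -0.61. The ratios of Cd247 and Trbc1 to Cd3e stayed lower in TDC. Over 17 ratios, which include the γ and δ genes, the smallest two-sided exact permutation p was 0.1, the lowest the design allows, and the smallest adjusted value was 0.51. The p of 0.1 came from Tcrg-C1, which had no read in TDC, so it depends on the 0.5 read added. A p of this size does not show that the proportions are alike.

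**Figure D3:**
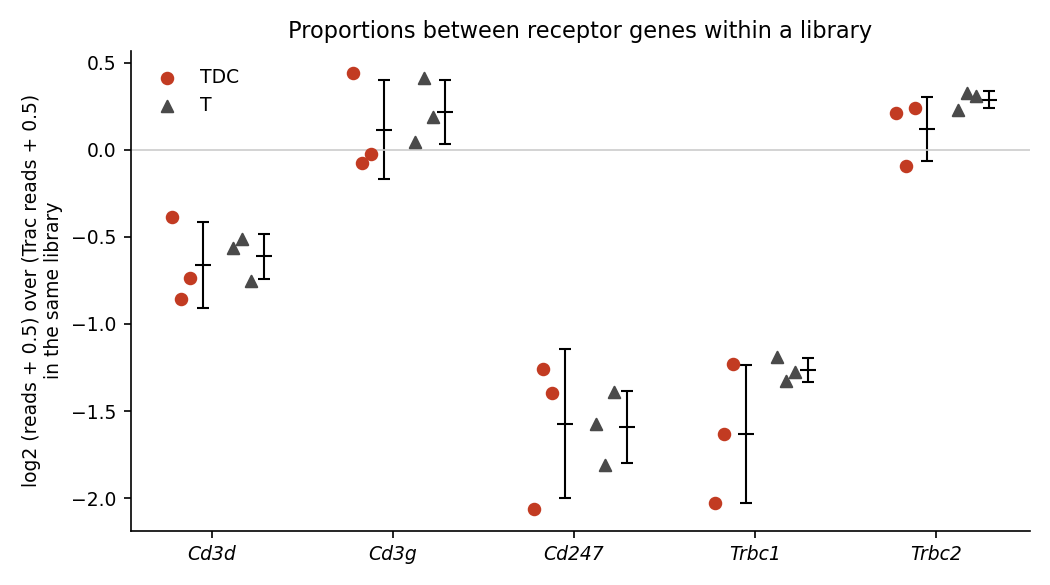
Reads of 5 receptor genes relative to Trac in the same library, as log2 of the ratio with 0.5 read added to each count, 1 symbol per library with the mean and SD of 3 libraries beside it. TDC and T cell libraries overlap for every gene, with Trbc1 showing the lower mean in TDC (-1.63) than in T cells (-1.26).

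Genes of the γδ receptor had at most 3 reads in any TDC library. Trdc, the δ constant gene on chromosome 14, had 0, 0 and 0.149 CPM in TDC, no read in DC, and 4.92, 7.31 and 4.69 CPM in the T cells. The TDC value was 2 reads in replicate 3. Tcrg-C1, a γ constant gene, had no read in any TDC library, 0.651, 0.697 and 0 CPM in DC, and 3.87, 5.93 and 10.2 CPM in the T cells. Tcrg-C2, another γ constant gene, had 0, 0.167 and 0 CPM in TDC (3 reads), 0.344, 0 and 0 CPM in DC, and 6.75, 17.6 and 12.5 CPM in the T cells. Every TDC library was below every T cell library for each of the 3 genes, which also held for 22.4% of all tested genes. DC libraries were below the T cell libraries too, without such a share computed. These genes passed the filter through their T cell reads, which favours this order.

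Against T cells, pooled over libraries, Trdc in TDC stood at 0.821% (exact 95% interval 0.0989% to 2.99%, counting error only) and Tcrg-C2 at 0.547% (0.113% to 1.61%). Tcrg-C1 was at least 94.4-fold lower in TDC. By edgeR's quasi-likelihood test, adjusted p was 0.00786 for Trdc, 0.00523 for Tcrg-C2 and 0.00591 for Tcrg-C1. Among all tested genes 11.2% were called lower. The 3 genes were tested only because T cell libraries carried them, so these calls add little to the read counts. The fitted log2 fold change of Trdc was -6.66 (SE 1.42), -6.04 without TDC replicate 2 and -9.62 without TDC replicate 3, and that of Tcrg-C2 was -7.42 (SE 1.59) and -10.69 without TDC replicate 2. These fitted values rest on 0 to 3 reads and vary accordingly.

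At the level of Trac in each TDC library, the T cell ratio of these 3 genes to Trac would correspond to 7.03, 3.39 and 8.88 reads in TDC replicates 1, 2 and 3. The libraries held 0, 3 and 2 reads. Over all libraries that is 5 reads beside 19.3, with 1377 reads in T cells. Of the single ratios to Trac, that of Tcrg-C1 was the one in which TDC and T cell libraries did not overlap. Tcrg-C1 had no read in TDC, so both this separation and its size depend on the 0.5 read added. Tcrg-C1 and Tcrg-C2 are 93.97% identical over their GENCODE models and share a run of 104 bases near the 3′ end, so reads may be assigned to either copy. A further γ constant gene, Tcrg-C4, had 3 reads in TDC, 39 in DC and 317 in T cells, and its T cell ratio to Trac would correspond to 4.19 reads in TDC. All 3 TDC reads were in replicate 2, where that ratio gives 0.736. Tcrg-C3 had 1 read, in T cells.

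In DC the receptor genes were seen as scattered reads, which differed in kind from library to library. DC replicate 1 had 66 reads over 5 of the genes, 21 of them Trbc2 and 17 Tcrg-C1. DC replicate 2 had 58 reads over 4 genes, 28 of them Cd3d and 13 Cd247. DC replicate 3 had 57 reads, every one from Cd247. Cd3e, Cd3g and Trdc had none in any DC library. Against T cells, Cd3e was at least 6753-fold lower in DC (adjusted p = 9.36e-06), Cd3g at least 29232-fold lower (adjusted p = 2.32e-05) and Trdc at least 108-fold lower (adjusted p = 0.00392).

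For the genes with some DC reads, the log2 fold change in DC against T cells was -10.16 for Cd3d (SE 1.22), -8.23 for Cd247 (SE 1.21), -13.16 for Trac (SE 1.19) and -12.20 for the summed β genes (SE 1.36). All 4 passed the test, with adjusted p between 3.49e-05 for Trac and 0.000715 for Cd247. Single DC libraries carried these sizes. The value was -11.84 for Cd3d without DC replicate 2, -10.07 for Cd247 without DC replicate 3 and -7.60 without DC replicate 1. Trac was at -12.39 without DC replicate 1 and -17.44 without DC replicate 2, and the summed β genes at -18.04 without DC replicate 1. Tcrg-C2 was lower as well (-6.49, SE 1.47, adjusted p = 0.00906, and -10.61 without DC replicate 1). Tcrg-C1 missed the threshold in DC against T cells (-3.87, SE 1.32, adjusted p = 0.0681), although every DC library was below every T cell library. With DESeq2 its adjusted p was 0.00708 and with limma-voom 0.00635, in a range of 0.00635 to 0.172 over all alternatives. In TDC against DC, Tcrg-C1 had 0 reads beside 27 (adjusted p = 0.0795, and 0.0201 without DC replicate 3), and Tcrg-C2 had 3 reads beside 9 (adjusted p = 0.743). Trdc was at or below 3 reads in both, so no fold is given.

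The proximal signalling genes downstream of the receptor were mostly low in TDC as well. Of 32 such genes tested against T cells, 20 were lower in TDC (11.2% of all tested genes were), 3 were higher (21.8% of all were) and 9 were not called, with a median log2 fold change of -4.32. Lat, the membrane scaffold that ZAP-70 phosphorylates, averaged 27.1 ± 13.4 CPM in TDC, 0.0592 ± 0.0720 CPM in DC and 1208 ± 287 CPM in the T cells (SD, n = 3 each), and its log2 fold change in TDC against T cells was -5.48 (adjusted p = 6.21e-05). Sh2d2a, an adaptor that binds Lck, was lower by a log2 fold change of -5.18 (adjusted p = 2.60e-05), and Cd2 by -5.47 (adjusted p = 4.56e-05). The genes that rose were Syk, Lcp2 and Ptpn6. Syk, the relative of ZAP-70 used by B cells and myeloid cells, averaged 432 ± 267 CPM in TDC, 202 ± 59.9 CPM in DC and 0.189 ± 0.327 CPM in the T cells, a log2 fold change of 11.03 in TDC against T cells (adjusted p = 6.20e-05). The Syk value was 10.42 without T replicate 2, 15.83 without T replicate 3 and 10.43 without TDC replicate 2, and T cells had 11 reads of it. Lcp2, the adaptor SLP-76, was higher by a log2 fold change of 0.97 (adjusted p = 0.0177), and Ptpn6, the phosphatase SHP-1, by 1.00 (adjusted p = 0.0136). Neither was called with scaling by library size alone, with log2 fold changes of 0.36 for Lcp2 and 0.40 for Ptpn6, or with upper-quartile factors. Without T replicate 1 neither passed (adjusted p = 0.0688 for Lcp2 and 0.0523 for Ptpn6), and Lcp2 also missed the threshold without a low-count filter (0.0599), without T replicate 2 (0.0561) and without TDC replicate 2 (0.0696). Against DC, 15 of the 32 genes were higher in TDC (9.55% of all tested genes were) and 3 were lower (4.6% of all were).

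Adaptors that carry ITAMs or related motifs for other receptors differed among themselves. Of 5 tested against T cells, 3 were higher in TDC (21.8% of all tested genes were), 1 was lower (11.2% of all were) and 1 was not called. Their median log2 fold change was 2.18. Fcer1g, the γ chain of Fc receptors, averaged 2187 ± 1357 CPM in TDC, 515 ± 312 CPM in DC and 7.54 ± 2.57 CPM in the T cells (SD, n = 3 each), a log2 fold change of 8.18 in TDC against T cells (SE 0.74, adjusted p = 2.82e-05, and 7.57 without TDC replicate 1). Tyrobp, which encodes DAP12, averaged 1881 ± 1193 CPM in TDC, 1034 ± 730 CPM in DC and 4.29 ± 0.444 CPM in the T cells, with a log2 fold change of 8.77 (adjusted p = 2.25e-05, and 8.15 without TDC replicate 1). Cd79b, a chain of the B cell receptor complex, was higher by 2.18 (adjusted p = 0.00442). Hcst, which encodes DAP10 and lacks an ITAM, was lower (log2 fold change -2.35, adjusted p = 0.0128, and -2.95 without TDC replicate 1). Fcer1g and Tyrobp, which macrophages also use, were thus higher in TDC, and the 4 CD3 chain genes were lower, each set against T cells. The macrophage markers given above were higher in TDC as well, and their part in these levels was not tested.

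Regulators of receptor gene expression were lower in TDC than in T cells in 12 of 18 cases, beside 11.2% of all tested genes, higher in 1 and not called in 5, with a median log2 fold change of -3.15. Among them, Satb1, a chromatin organiser of thymocytes, had a log2 fold change of -4.37 (adjusted p = 6.08e-05). Lef1, a TCF family factor, had -5.36 (adjusted p = 0.000139), its relative Tcf7 had -4.77 (adjusted p = 0.000354) and Bcl11b, which maintains T cell identity, had -4.84 (adjusted p = 0.000405). Without TDC replicate 3 the values were -4.95 for Satb1, -5.75 for Tcf7 and -5.56 for Bcl11b. Id2, an inhibitor of E-proteins that is also needed by DC, was the gene that was higher, with 4893 ± 2462 CPM in TDC, 1309 ± 678 CPM in DC and 459 ± 187 CPM in the T cells (log2 fold change 3.41 in TDC against T cells, adjusted p = 0.000790). Against DC, 4 of the 18 regulators were higher in TDC (9.55% of all tested genes were). The 2 that were lower (4.6% of all were) became 1 without TDC replicate 1, 0 without TDC replicate 2 and 4 without TDC replicate 3. Satb1 averaged 28.7 CPM in TDC and 55.8 CPM in DC, and Tcf7 34.6 and 62.4 CPM. Neither was called in TDC against DC (adjusted p = 0.139 and 0.364 by edgeR's quasi-likelihood test). Lef1 averaged 15.8 CPM in TDC and 0.0397 CPM in DC, and Bcl11b 10.2 and 0.0765 CPM. Both were called higher in TDC than in DC (adjusted p = 0.000334 and 0.000982).

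**Figure D4:**
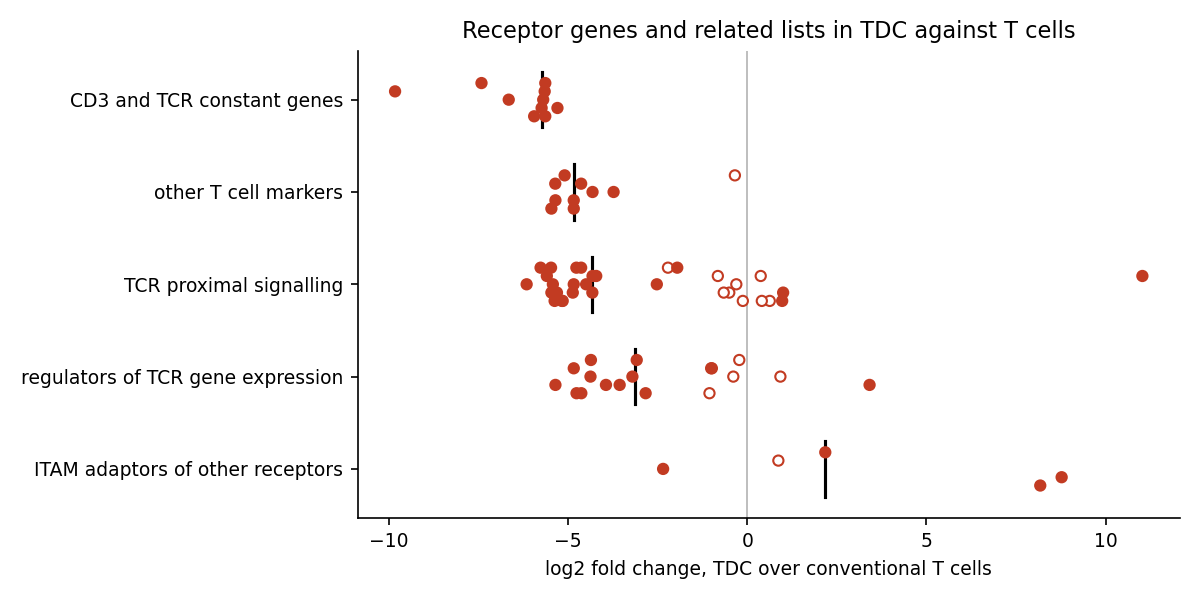
Fitted log2 fold change in TDC against T cells, 1 point per tested gene, for the 10 receptor genes and 4 related lists, filled where the adjusted p was under 0.05, with a bar at each list's median. The receptor genes are all below 0 (median -5.72; the leftmost point is Tcrg-C1, whose fitted value rests on 0 reads in TDC), and the ITAM adaptors lie mostly above 0 (median 2.18).

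Genes of receptor rearrangement and of the pre-T cell receptor were mostly too low to test. Of 7 such genes, 3 passed the filter. Against T cells, 1 of these was lower in TDC (11.2% of all tested genes were), 1 was higher (21.8% of all were) and 1, Notch1, was not called. Rag1, a recombinase subunit, and Ptcra, the pre-T cell receptor α chain, had no read in any library. Dntt, the enzyme that adds bases at receptor junctions, averaged 0.199 ± 0.344 CPM in TDC (8 reads), no read in DC and 14.4 ± 7.24 CPM in the T cells, a log2 fold change of -6.14 in TDC against T cells (adjusted p = 0.0138). The Dntt value was -5.51 without TDC replicate 2 and -10.97 without TDC replicate 3, when no TDC read was left. Hes1, a Notch target in many cell types, averaged 149 ± 56.9 CPM in TDC, 124 ± 116 CPM in DC and 0.141 ± 0.244 CPM in the T cells. It was not called in TDC against DC (log2 fold change 0.26, adjusted p = 0.870 by edgeR's quasi-likelihood test). Against T cells it was higher in TDC (log2 fold change 10.22, adjusted p = 0.000158). That value ran from 9.57 without T replicate 2 and 9.59 without T replicate 3 to 14.34 without T replicate 1, as T cells had 6 reads.

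Of 12 genes linked to γδ T cells, 8 passed the filter. Against T cells, 3 of these were lower in TDC (11.2% of all tested genes were) and 3 were not called. The 2 that were higher are a share near the 21.8% of all tested genes. Cd163l1, a scavenger receptor family gene of γδ T cells, had no read in TDC or DC and 5.03 ± 1.11 CPM in the T cells (SD, n = 3). Maf, which encodes a factor of γδ T cells that macrophages also express, was higher in TDC, at 112 ± 17.7 CPM in TDC, 0.697 ± 0.756 CPM in DC and 7.26 ± 2.90 CPM in the T cells (log2 fold change 3.94 in TDC against T cells, adjusted p = 0.00188).

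By Pearson's r over the 9 libraries with the mean z-scored log2 CPM of the 10 genes, the genes with the most similar pattern outside receptor segments were Trat1 (r = 0.996), Cd2 (0.993), Jakmip1 (0.992), Slc16a5 (0.990), Thy1 (0.990), Dapl1 (0.989), Pdlim1 (0.989) and Ifi214 (0.988). This is a description over libraries of 3 populations that differ as groups. Trat1 encodes an adaptor that associates with the receptor complex, and Thy1 a surface glycoprotein of mouse T cells. Trat1 averaged 1.69 ± 1.29 CPM in TDC, had no read in DC and averaged 120.1 ± 31.2 CPM in the T cells (SD, n = 3 each). Its log2 fold change in TDC against T cells was -6.16 (adjusted p = 0.000220), and -7.01 without TDC replicate 3.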

How the data were processed

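RNA of sorted spleen cells was made into libraries with a Lexogen stranded QuantSeq kit, per the labels' protocols. The deposited table holds whole-number counts of reads per gene, not normalized. The submitters' processing notes name FastQC, MultiQC, Trimmomatic, STAR and featureCounts without versions, and the build hg38, although the rows carry mouse gene symbols. The annotation, strand setting and handling of reads matching several places were not given in the sources used here. Symbols turned into dates in the table occur as duplicates and were not used for naming.

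Libraries were grouped by their titles, 3 in each of 3 groups. From the deposited counts, 14708 of 50508 gene rows passed filterByExpr (minimum count 10, minimum total 15), and 23670 rows had no read. TMM scaling and the robust quasi-likelihood test of edgeR 4.0.16 in R 4.3.3 were fitted to all 9 libraries with group as the only term (6 residual degrees of freedom, common biological coefficient of variation 0.588), with calls at a Benjamini-Hochberg adjusted p under 0.05. Standard errors were derived from the fold change and its F statistic. Alternatives were other scalings, other filters, DESeq2 1.42.0, limma-voom (limma 3.58.1), fits of 2 groups, a replicate block, each library left out, and Trbc1 and Trbc2 summed. Applying them to the other lists and their genes was chosen after seeing the data. Ratios used exact permutation tests over libraries. On simulated counts for 14708 genes of TDC against T cells, the test recovered 10 of 64 genes changed 4-fold, 49 of 69 changed 8-fold and 65 of 67 changed 32-fold, with 3 false calls. The simulation gave every gene the common coefficient of variation of 0.588. It changed only genes above a low mean level and left all others equal between groups. Its rates therefore check the procedure and do not measure error in these libraries.

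All 10 receptor genes are named whatever their result. From each other list, up to 4 genes with the smallest adjusted p in TDC against T cells and genes called against the list's majority were eligible, plus the 8 genes of most similar pattern. Other genes, such as Cd8a and Cd4, are list members named after their values were seen. The genes and lists were chosen with earlier results of these data known. Promoter sequences are from RefSeq, and constant gene exons from GENCODE M21.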

Additional observations from a re-analysis of the deposited data

How the results depend on the processing

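All 10 receptor genes were lower in TDC than in T cells under each scaling, filter, test and omitted library tried (9 of 9 with Trbc1 and Trbc2 summed). No receptor gene given with a fold change reversed direction; Trdc and Tcrg-C2 in TDC against DC have too few reads for one. The number called higher in TDC than in DC was 5 to 7, and the number called lower in DC than in T cells was 9 or 10 (8 of 9 with Trbc1 and Trbc2 summed). The number called lower in TDC than in DC, 0, became 1 (Tcrg-C1) without a filter on low counts and with the DESeq2 Wald test, and was 0 to 1 when single libraries were left out, with 1 without DC replicate 3. Of the signalling genes, 3 were higher in TDC against T cells, but 1 with library size alone or upper-quartile factors, and leaving out single libraries gave 1 to 3 (1 without T replicate 1). Of the rearrangement genes, 1 was lower, and 2 in a fit of the 2 groups alone, with 1 to 2 when single libraries were left out (2 without DC replicate 3, when Notch1 passed). Of the regulators, 2 were lower in TDC against DC, with 0 to 4 when single libraries were left out. Cd4, not called, ranged from -0.69 to 0.089 with single libraries left out, the higher value without TDC replicate 1. The ratio of Tcrg-C1 to Cd3e depends on the read added, at -4.36 with 0.1 and -1.06 with 1. Beyond the calls given with Cd3d, Cd247 and Tcrg-C1, no call of a receptor gene changed. Scaling by library size alone shifted the median of all genes by -0.61 in TDC against T cells, -0.29 in TDC against DC and -0.29 in DC against T cells, and the share of calls in TDC against T cells that were higher was 42.9% in place of 66.0%. Upper-quartile factors shifted the first of these by -0.25. Same-numbered libraries share a sample code and a pool size in the labels, which do not say whether they share animals, and the values gave no sign that the numbers pair them: deviations of same-numbered libraries correlated at -0.384 to 0.224, 2 of 9 pairs exceeded 0.1, and 1 of 9 libraries correlated best with its own number. With the replicate block the counts were 10, 6 and 9 in TDC against T cells, TDC against DC and DC against T cells, and against T cells 11 regulators and 2 γδ genes were lower in TDC in place of 12 and 3. Levels of at most 3 reads, as in Trdc and Tcrg-C2 in TDC, are limited by depth.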
